A study of Macaca mulatta with 8 samples.

Results

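The 7 genes of the Wnt signalling pathway described here were followed across the cell classes of the infant rhesus macaque brain: the transcription factors TCF7L1, TCF7L2 and LEF1, the receptor FZD3, the inhibitors WIF1 and APCDD1, and the feedback scaffold AXIN2. They are 7 of the 21748 genes of the deposited matrix, and each was found there by its symbol (gene identifiers ENSMMUG00000020134 for TCF7L1, ENSMMUG00000022799 for TCF7L2, ENSMMUG00000023256 for LEF1, ENSMMUG00000007486 for FZD3, ENSMMUG00000016887 for WIF1, ENSMMUG00000060015 for AXIN2 and ENSMMUG00000056891 for APCDD1). They were chosen by their measured levels, molecule counts per class scaled to a common total, for differing between endothelial cells, newly formed oligodendrocytes, astrocytes, ependymal cells and neurons, so those levels are given below as a description, without a test.

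Wnt proteins are secreted lipid-modified signals that bind Frizzled receptors together with LRP5 or LRP6. In the canonical branch, binding stalls a destruction complex built on axin and APC, beta-catenin (CTNNB1) accumulates, enters the nucleus and joins a TCF or LEF factor on its target genes. Without beta-catenin the same factors sit with TLE co-repressors and keep targets off, and TCF7L1 is best known in that role. AXIN2 is a widely used target gene that feeds back on the pathway, WIF1 binds Wnt proteins outside the cell, and APCDD1 is a membrane protein that dampens signalling at the surface. FZD3 is best known from planar cell polarity, the branch that orients cilia and guides axons. In the brain, Wnt signals are known for building and keeping the blood-brain barrier in endothelial cells, for timing oligodendrocyte maturation, and for the dentate granule lineage.

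The series holds 4 control samples, divided from mixed tissue of 2 male macaques, and 4 sevoflurane samples, divided from the tissue of 1 male macaque. The sevoflurane animal breathed about 2.5 to 3% of this volatile anaesthetic for 4 h at about postnatal day 7 and again at 14 and 28 days. Samples of a group are therefore portions of the same tissue, with the animals of a group not separable. The labels name hippocampus as the tissue while the protocol text names amygdala. Nuclei were isolated from frozen tissue and sequenced as 10x 3' libraries.

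The matrix joins 8 libraries, marked by the barcode suffix, and nothing in the files or labels ties a suffix to a sample. Sevoflurane against control was therefore not analysed here, the matrix was treated as 1 sample, and no test between groups or classes was run. Libraries serve only to show whether a difference between classes has the same direction in each. Of 59749 barcodes, 54644 nuclei were kept, with 5015 to 8931 per library, and 429 barcode sequences occurred in more than 1 library. The 8 libraries held 35806547 to 47007082 unique molecular identifiers (UMIs, counted molecules) each. Of the libraries, 4 were shallower (median 3189 to 3426 UMIs per barcode) and 4 deeper (5730 to 5831), and neurons were 27.1% to 70.7% of kept nuclei. Among the shallower ones, neurons were 48.0% and 49.1% in libraries 1 and 2 but 27.1% and 27.8% in libraries 3 and 4. Values pooled within the shallower libraries therefore join libraries of unlike make-up. Several clusters were made up almost wholly of the shallower or the deeper libraries. Where a ratio given below moved by more than 1.5 times within either of these sets of 4 libraries, its value there follows.

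Nuclei were clustered without any of the 7 genes and named from marker genes that include none of them. Each class name below stands for a cluster that resembles the type by its markers. The summed level of the class's own markers was 9474 CPM (counts scaled to a total of 1000000) in endothelial cells against 581 CPM in the next class, 12879 against 1266 CPM in newly formed oligodendrocytes, 13593 against 3573 CPM in astrocytes and 11160 against 441 CPM in ependymal cells. The oligodendrocyte precursor markers reached 12430 CPM in their own class and 11251 CPM in newly formed oligodendrocytes, the next stage. The excitatory neuron markers were also little apart, at 1725 CPM in their own class and 1283 CPM in the next, Cajal-Retzius neurons. Endothelial, mural and fibroblast clusters had median doublet scores of 0.34 to 0.40, against 0.06 in astrocyte clusters 1 and 3. The score is the share of simulated pairs of nuclei among the nearest neighbours of a nucleus. The part of astrocyte RNA in the vascular levels was not tested. Cluster 6 (2097 nuclei) scored highest on immature-neuron markers, which summed to 1017 CPM there against 357 CPM in the next class. None of them was among its 10 leading genes, which include CALB2, listed here as a Cajal-Retzius marker. The ependymal cluster, oligodendrocyte clusters 0 and 16 and astrocyte cluster 34 likewise had none of their own markers among their leading genes. The same held for several neuron clusters, among them inhibitory cluster 40 and excitatory cluster 44. Cluster 6 is called by its number, and its identity was not tested further. The sum of the granule-neuron list did not set the granule-like class apart: it was 2047 CPM there and 10993 CPM in newly formed oligodendrocytes, and without its member MAML2 1590 and 4956 CPM. Taken singly, PROX1 (266 against 17.1 CPM), CALB1 (61.1 against 6.75 CPM) and TRPC6 (76.0 against 2.78 CPM) were higher in the granule-like class. NECTIN3, MAML2 and SEMA5A were lower there. The class is made of cluster 5, 99.6% of it from the shallower libraries and with none of the list among its 10 leading genes, and of cluster 21 from the deeper libraries, led by VGLL3 and the dentate factor PROX1.

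Levels are CPM of the summed UMIs of a class, with exact 95% Poisson intervals, followed by the lowest, median and highest library among those with at least 20 nuclei of the class. These intervals, and the exact binomial ones of ratios and shares, cover counting error only. A gene was called higher in a class where it was at least 2-fold higher, reached at least 10 CPM there and lay in the same direction in every library with at least 20 nuclei of both classes. Microglia, a class not known for these genes, served as the background level, which free RNA can set: 21.8 CPM for TCF7L1, 21.6 CPM for TCF7L2, 6.71 CPM for LEF1, 28.3 CPM for FZD3, 58.8 CPM for WIF1, 52.7 CPM for APCDD1 and 1.02 CPM for AXIN2. The class called microglia here is cluster 4, named from a joint list of microglia and macrophage markers. Its leading genes include MRC1 and CD163, and microglia and macrophages were not told apart. Values at or under these levels are read as background, as a guide only. For APCDD1, oligodendrocytes at 11.8 CPM and excitatory neurons at 12.1 CPM lay well under the microglial level, so that level is no floor. Of the 2958 microglia, 186 come from the deeper libraries, where the microglial levels rest on 2 to 16 UMIs a gene. A gene counts as measured in a comparison where it reached 10 CPM in either class. The genes peaked in different classes. LEF1, APCDD1 and AXIN2 were highest in endothelial cells, TCF7L1 and FZD3 in ependymal cells, TCF7L2 in newly formed oligodendrocytes and WIF1 in astrocytes.

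**Figure D1:**
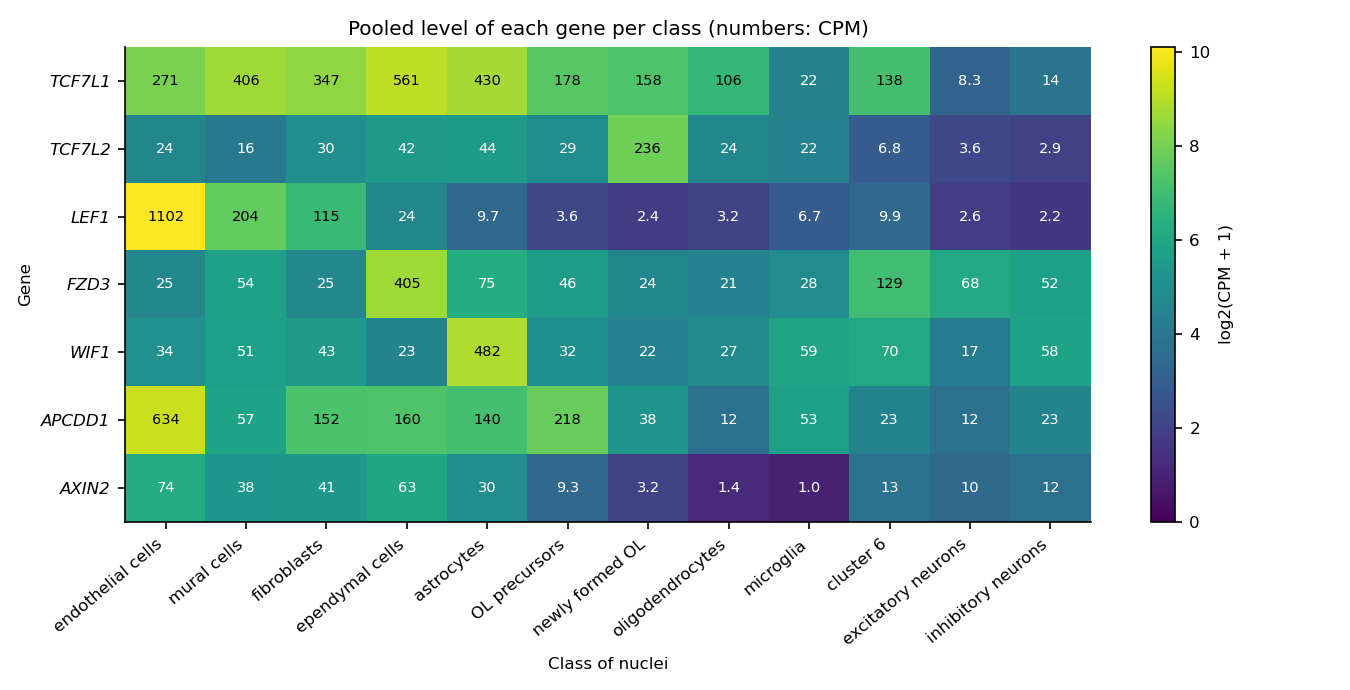
Pooled level of each of the 7 genes (rows) in 12 classes of nuclei (columns), as CPM in each cell with colour for log2(CPM + 1). LEF1 reached 1102 CPM in endothelial cells and TCF7L2 236 CPM in newly formed oligodendrocytes, while TCF7L1 was spread over glial and vascular classes.

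Among the transcription factors, TCF7L1 had the broadest distribution and was low in mature neurons. It stood at 561 CPM in ependymal cells (538 to 585; libraries 420, 556 and 671) and at 430 CPM in astrocytes (421 to 440; libraries 377, 445 and 566). Mural cells had 406 CPM (338 to 483), fibroblasts 347 CPM (300 to 399) and endothelial cells 271 CPM (246 to 298; libraries 148, 288 and 389). Each of these 5 classes overlaps the next one in its library range, so the order of neighbours is not settled. The ends of the order are apart, as the lowest ependymal library (420 CPM) was above the highest endothelial one (389 CPM). Astrocytes were also above endothelial cells in 7 of 7 libraries. Oligodendrocyte precursors had 178 CPM, newly formed oligodendrocytes 158 CPM and oligodendrocytes 106 CPM. Excitatory neurons had 8.29 CPM and inhibitory neurons 13.6 CPM, both under the microglial level, and every library of both classes was lower than every library of astrocytes. Single clusters were above the microglial level. Inhibitory cluster 10, with SST and LHX6 among its leading genes, had 32.5 CPM and 352 of the 575 inhibitory UMIs. Cluster 21, granule-like and counted among the excitatory neurons, had 48.9 CPM. Both were singled out after their values were seen. Thinned to 1000 UMIs per nucleus, 39.4% of ependymal nuclei (36.6 to 42.3, exact binomial, 457 of 1160) held a TCF7L1 UMI against 2.19% of microglia (1.67 to 2.82), and without thinning 66.0% against 3.28%. The median depth of these nuclei was 2515 UMIs in ependymal cells and 1657 UMIs in microglia.

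TCF7L2, the factor that has a known part in oligodendrocyte differentiation, marked a single stage. It stood at 236 CPM in newly formed oligodendrocytes (223 to 250; libraries 175, 219 and 304). The next class was astrocytes at 43.9 CPM (41.0 to 47.0; libraries 30.9, 44.7 and 58.0), and no library of astrocytes reached the lowest library of newly formed oligodendrocytes. From astrocytes down to mural cells at 16.0 CPM, neighbouring classes overlapped in their library ranges. Neurons were lowest, with 3.62 CPM in excitatory and 2.89 CPM in inhibitory neurons. A TCF7L2 UMI was found in 19.8% of thinned newly formed oligodendrocyte nuclei (17.6 to 22.1, 245 of 1240) against 1.86% of microglia (1.38 to 2.44), and in 47.7% against 3.31% without thinning. Within mature oligodendrocytes the level differed between clusters, with 39.5 CPM in cluster 16 (34.3 to 45.2) and 17.7 CPM in cluster 0 (15.5 to 20.2).

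LEF1 was the most vascular of the 7 genes. Endothelial cells held 1102 CPM (1051 to 1156; libraries 853, 1218 and 1675), mural cells 204 CPM (157 to 261; libraries 86.9, 212 and 424) and fibroblasts 115 CPM (88.8 to 147). The lowest endothelial library was above the highest mural library. Ependymal cells followed at 24.1 CPM (19.5 to 29.5; libraries 21.3, 25.1 and 36.4), below the lowest fibroblast library. Cluster 6 had 9.92 CPM and astrocytes 9.73 CPM, and each class of the oligodendrocyte lineage and of mature neurons was at 3.58 CPM or less, under the microglial 6.71 CPM. A LEF1 UMI was present in 60.8% of thinned endothelial nuclei (55.9 to 65.5, 254 of 418) against 0.483% of microglia (0.258 to 0.825), and in 79.3% against 0.845% without thinning. Outside the vessels, 2 small clusters stood above their class: cluster 34 of the astrocytes at 46.4 CPM (34.4 to 61.2, 473 nuclei) and cluster 44 of the excitatory neurons at 24.0 CPM (16.0 to 34.7, 131 nuclei, none from the shallower libraries). These clusters were singled out after their values were seen.

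FZD3, the receptor, was highest in ependymal cells, the ciliated lining of the ventricles, at 405 CPM (385 to 425; libraries 260, 357 and 481). Cluster 6 came next at 129 CPM (118 to 140), with 120 CPM, 111 CPM, 179 CPM and 160 CPM in its 4 libraries, and no library of cluster 6 reached the lowest ependymal library. Astrocytes had 75.0 CPM (71.2 to 79.0; libraries 44.1, 70.9 and 87.3), all below cluster 6. Excitatory neurons had 68.5 CPM (libraries 61.2, 66.6 and 76.5) and inhibitory neurons 52.3 CPM (libraries 45.4, 53.0 and 56.6). FZD3 in mature neurons of every library was thus above the pooled microglial level of 28.3 CPM, as AXIN2 was above its own, while the other 5 genes were not in the pooled neurons. Newly formed oligodendrocytes at 23.8 CPM, oligodendrocytes at 21.1 CPM and endothelial cells at 24.6 CPM were at background. A FZD3 UMI was found in 31.0% of thinned ependymal nuclei (28.4 to 33.8, 360 of 1160) against 2.60% of microglia (2.03 to 3.28), and in 59.9% against 4.33% without thinning.

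Of the inhibitors, WIF1 was an astrocyte gene with a wide spread over libraries. Astrocytes held 482 CPM (472 to 492), but their libraries ran from 160 through a median of 337 to 832 CPM. Even the lowest astrocyte library was above the highest library of any other class, the next being cluster 6 at 69.7 CPM (libraries 72.6, 77.2, 54.0 and 59.6 CPM). Different clusters hold most astrocytes in different libraries: cluster 1, 99.7% of it from the shallower libraries, had 755 CPM (738 to 772), and cluster 3, 1.09% from those libraries, had 171 CPM (161 to 182). The other astrocyte clusters were lower still although they too come from the shallower libraries, with 66.7 CPM in cluster 32 (53.5 to 82.2) and 97.4 CPM in cluster 34 (79.7 to 118). A WIF1 UMI was found in 27.8% of thinned astrocyte nuclei (26.9 to 28.8, 2216 of 7957) against 5.84% of microglia (4.98 to 6.79), and in 41.1% against 9.03% without thinning. Ependymal cells, close to astrocytes in many markers, had 22.6 CPM (18.2 to 27.8).

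APCDD1 was highest in endothelial cells at 634 CPM (595 to 675; libraries 361, 609 and 882), and every endothelial library was above every library of the next class, oligodendrocyte precursors at 218 CPM (209 to 228; libraries 150, 197 and 240). The 2 endothelial clusters differed, with 829 CPM in cluster 46 (765 to 897), mostly from the shallower libraries, and 453 CPM in cluster 38 (408 to 502), drawn from both sets. Ependymal cells had 160 CPM, fibroblasts 152 CPM and astrocytes 140 CPM, and their library ranges overlap. Mature oligodendrocytes at 11.8 CPM and excitatory neurons at 12.1 CPM were lowest. An APCDD1 UMI was present in 35.6% of thinned endothelial nuclei (31.1 to 40.4, 149 of 418) against 4.54% of microglia (3.78 to 5.39), and in 58.0% against 7.91% without thinning.

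AXIN2, the feedback target, was low everywhere and shared the endothelial and ependymal peak. Endothelial cells had 73.7 CPM (60.8 to 88.5; libraries 58.3, 77.9 and 114) and ependymal cells 63.0 CPM (55.4 to 71.4; libraries 50.9, 72.8 and 90.5). These ranges overlap, as do the ranges of each further pair of neighbours in the order. Fibroblasts had 40.7 CPM, mural cells 38.3 CPM and astrocytes 29.8 CPM (libraries 24.7, 30.7 and 35.7). The oligodendrocyte lineage was low, at 9.32 CPM in precursors, 3.18 CPM in newly formed oligodendrocytes and 1.37 CPM in oligodendrocytes (25 UMIs in 5918 nuclei). In thinned endothelial nuclei 6.22% held an AXIN2 UMI (4.10 to 8.98, 26 of 418) against 0.149% of microglia (0.0405 to 0.380), and 18.5% against 0.169% without thinning.

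**Figure D2:**
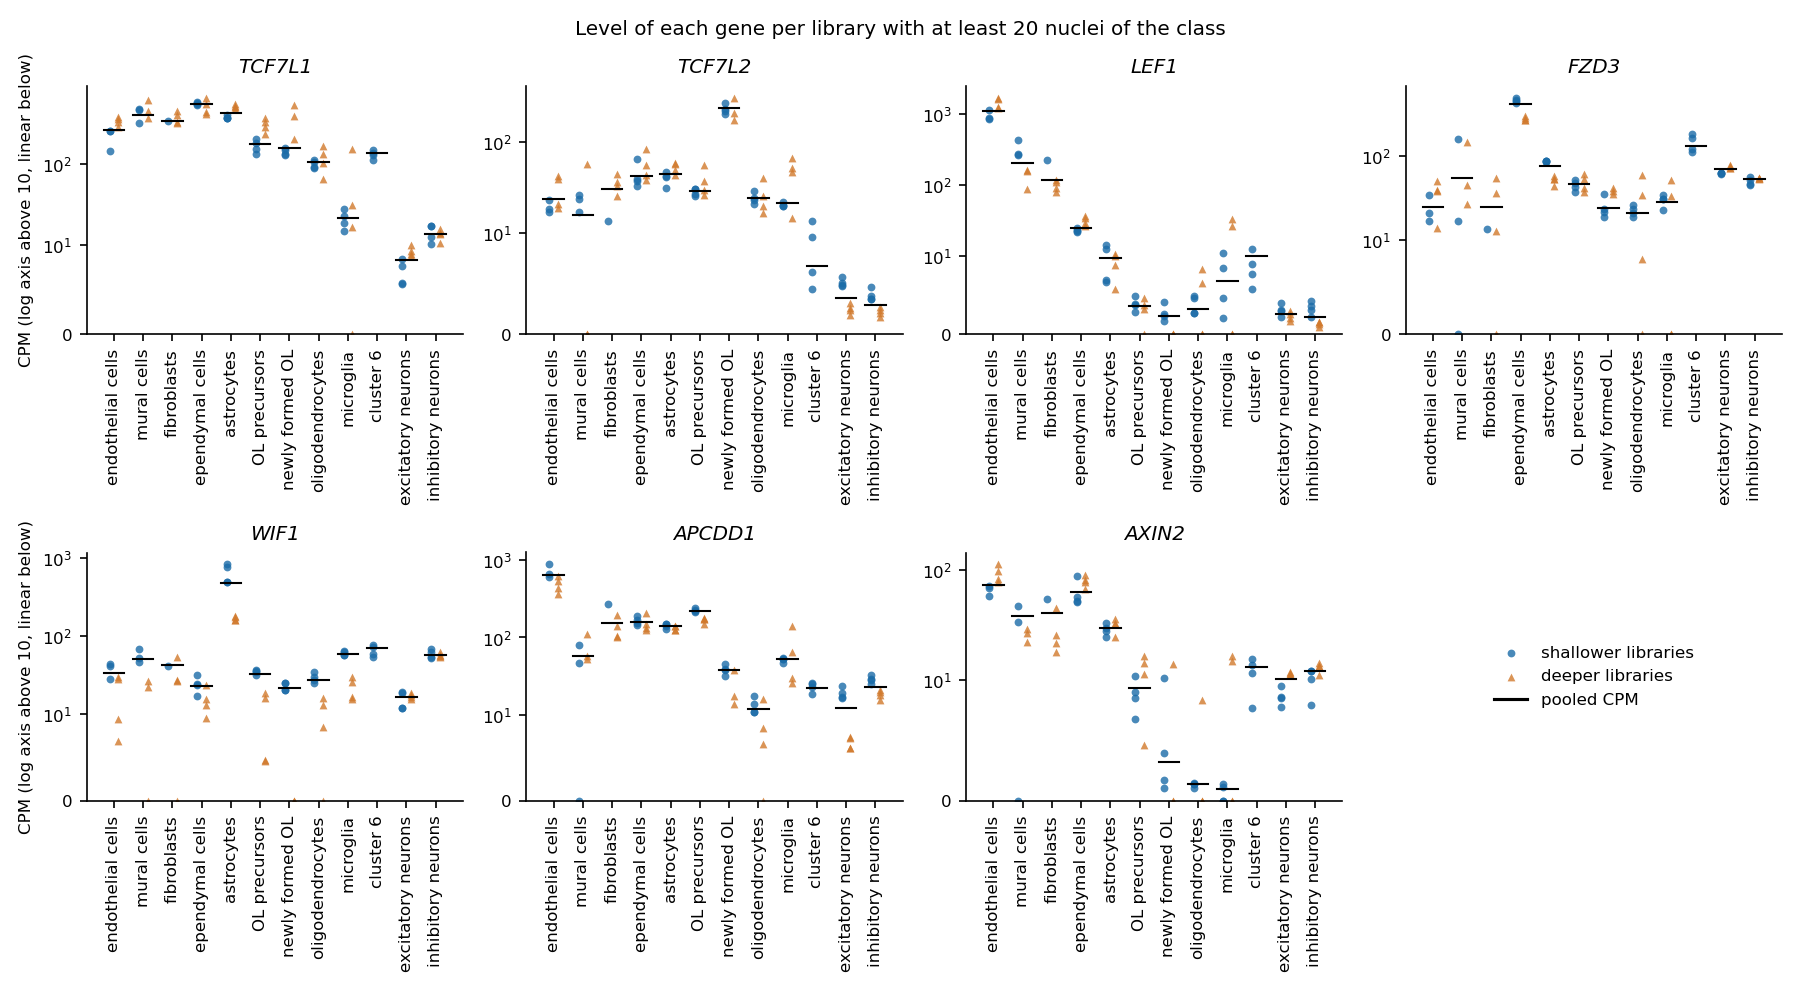
CPM of each gene in every library with at least 20 nuclei of a class, as circles for the 4 shallower and triangles for the 4 deeper libraries, with a line at the pooled level; the axis is logarithmic above 10 CPM and linear below. WIF1 in astrocytes runs from 160 to 832 CPM, while LEF1 in endothelial cells and TCF7L2 in newly formed oligodendrocytes stay above every library of the other classes.

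Along the oligodendrocyte lineage, TCF7L2 rose and fell while APCDD1 was lower past the precursor stage. TCF7L2 was 8.17-fold higher in newly formed oligodendrocytes than in precursors (7.17 to 9.34) and 9.82-fold higher than in oligodendrocytes (8.79 to 11), in 7 of 7 libraries each time. Precursor libraries ran from 25.2 through a median of 30.2 to 56.2 CPM and mature libraries from 16.7 through 23.7 to 40.1 CPM, all below the 175 CPM of the lowest newly formed library. APCDD1 was 5.79-fold lower in newly formed oligodendrocytes than in precursors (4.99 to 6.75, 7 of 7 libraries) and 3.19-fold lower in oligodendrocytes than in newly formed ones (2.61 to 3.89, 7 of 7 libraries). The newly formed level of 37.7 CPM and the mature level of 11.8 CPM are both under the microglial 52.7 CPM. The part of free RNA in the second difference was not tested. APCDD1 libraries ran from 150 to 240 CPM in precursors and from 13.9 through 38 to 45.3 CPM in newly formed oligodendrocytes, with no overlap. Those of oligodendrocytes (0 to 17.3 CPM) met the lowest newly formed ones. In the deeper libraries newly formed oligodendrocytes are few, with 21 to 23 nuclei each in 3 of them, and their APCDD1 values rest on 1 to 3 UMIs. After thinning every nucleus to 1000 UMIs, APCDD1 no longer passed the rule against oligodendrocytes (log2 ratio 1.84, main value 1.67). TCF7L1 was 1.48-fold higher in newly formed than in mature oligodendrocytes (1.37 to 1.61, 7 of 7 libraries), under the 2-fold limit. Within the deeper libraries it stood at 378 CPM (99 UMIs) against 118 CPM, 3.19-fold (2.29 to 4.46), and passed the rule, and within the shallower ones the ratio was 1.38-fold (1.26 to 1.5).

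Against precursors, 1 of the 5 measured genes was higher in newly formed oligodendrocytes and 1 lower, where 4.15% of 9315 genes were higher and 9.7% lower. Against oligodendrocytes, 2 of 5 were higher and 0 lower, where 6.01% of 9059 genes were higher and 8.1% lower. These comparisons share the newly formed nuclei, and the shares are beside genes chosen for such differences. Of the 6 measured Wnt target genes besides APCDD1, 4 were lower in newly formed oligodendrocytes than in precursors and 0 higher (median log2 ratio -1.86, against -0.26 over all genes). They included the cell cycle gene CCND1 at 5.36 against 59.7 CPM (11.1-fold, 7.58 to 17.1) and the R-spondin receptor LGR5 at 3.77 against 23.7 CPM (6.27-fold, 3.93 to 10.6). The Wnt carrier WLS was 4.29-fold lower (3.45 to 5.39) and the receptor kinase ROR2 2.43-fold lower (2.24 to 2.64). The planar polarity gene PRICKLE1 moved the other way, at 160 CPM in newly formed oligodendrocytes against 13.4 CPM in precursors (11.9-fold, 9.88 to 14.4) and 36.6 CPM in oligodendrocytes (4.36-fold, 3.93 to 4.84). The co-receptor LRP5 was 3.81-fold higher than in oligodendrocytes (3.15 to 4.6). In the deeper libraries the newly formed class gave 1 to 27 UMIs for each of these genes, and the ratios to precursors there were 6.45-fold for CCND1 (2.12 to 32), 9.68-fold for LGR5 (1.63 to 393) and 5.81-fold for ROR2. PRICKLE1 was 4.34-fold higher than in precursors there and 1.97-fold higher than in oligodendrocytes, which did not pass the rule, and LRP5 was 8.84-fold higher.

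**Figure D3:**
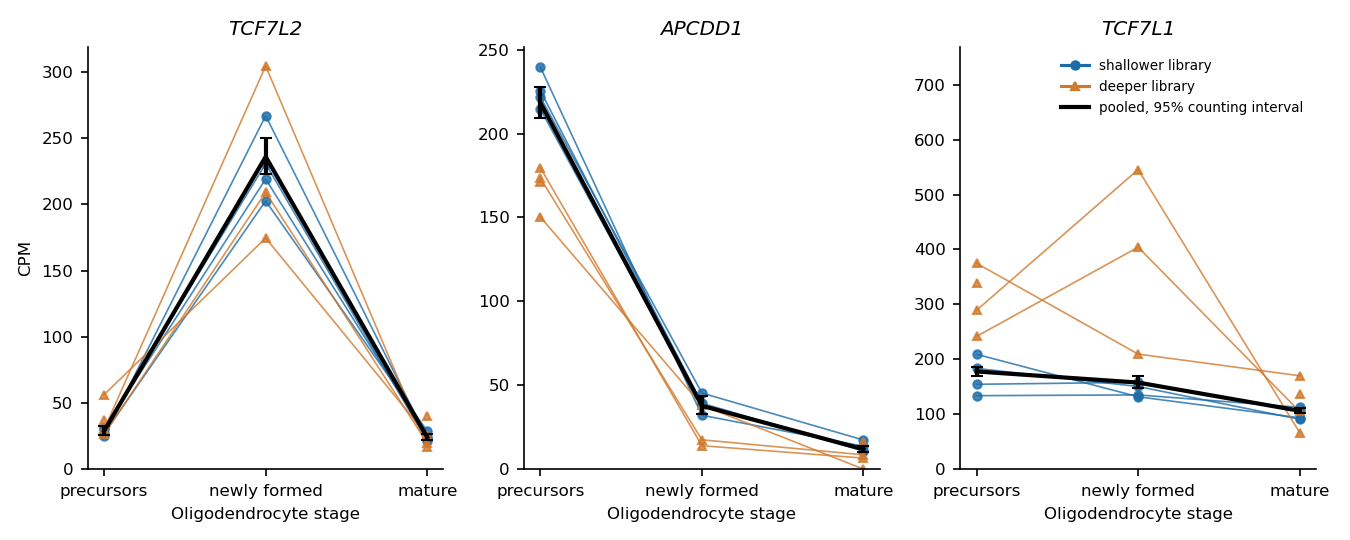
CPM of TCF7L2, APCDD1 and TCF7L1 in oligodendrocyte precursors, newly formed and mature oligodendrocytes; thin lines are libraries (circles shallower, triangles deeper), the black line is the pooled level with its 95% counting interval. TCF7L2 peaks at 236 CPM in the newly formed stage in every library shown, and APCDD1 falls from 218 to 37.7 and 11.8 CPM, the last 2 under the microglial 52.7 CPM.

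In the vessels, LEF1 and APCDD1 separated endothelial cells from the mural cells and fibroblasts around them. LEF1 was 7.50-fold higher (6.27 to 9.04) and APCDD1 5.35-fold higher (4.37 to 6.61), each in 7 of 7 libraries. The log2 ratio of LEF1 was 2.91 pooled, 2.08 within the shallower libraries and 3.82 within the deeper ones. AXIN2 was 1.85-fold higher (1.26 to 2.78) in 6 of 7 libraries and was not called. The exception was library 3, where mural cells and fibroblasts together had 145 CPM from 6 UMIs in 25 nuclei, and without that library AXIN2 passed the rule. Its ratio was 1.26-fold within the shallower libraries (0.732 to 2.28) and 2.80-fold within the deeper ones (1.59 to 5.14), where it passed. TCF7L1, TCF7L2, FZD3 and WIF1 were within 1.5-fold of the mural and fibroblast level. With 2 of 7 genes higher and 0 lower, the shares over 10634 genes were 5.79% higher and 5.91% lower. Of the endothelial barrier genes listed as tied to Wnt signalling, 6 were measured besides LEF1 and APCDD1, of which 4 were higher in endothelial cells and 0 lower (median log2 ratio 4.32, against -0.23 over all genes), among them the amino acid carrier SLC38A5 at 299 CPM against 3.42 CPM from 3 UMIs (87.6-fold, 29.8 to 426) and the lipid carrier MFSD2A at 166 against 6.84 CPM (24.3-fold, 11 to 66.9). These barrier genes were listed for their part in endothelial cells, so their direction was largely set by that choice and is a description. The norrin receptor FZD4 was 14.7-fold higher (6.58 to 40.6), FZD6 3.80-fold (2.81 to 5.24), the secreted inhibitor DKK2 58.5-fold (24.9 to 181) and CTNNB1 2.23-fold (1.88 to 2.66). The mural and fibroblast side held the ligands WNT9A (6.06-fold higher there, 3.42 to 11.3) and WNT5B (5.65-fold, 3.54 to 9.35) and the R-spondin RSPO2 at 133 against 2.59 CPM (51.5-fold, 19.6 to 192). Taken apart, WNT5B stood at 128 CPM in fibroblasts but at 16.0 CPM in mural cells, beside 15.5 CPM in endothelial cells. RSPO2 stood at 191 CPM in fibroblasts and 28.7 CPM in mural cells. With 2 to 4 mural and fibroblast UMIs in each set, DKK2 was 15-fold higher in endothelial cells within the shallower libraries (4.05 to 126) and 156-fold within the deeper ones (53.0 to 760.0), and FZD4 9.53-fold (3.63 to 35.5) and 17.9-fold (4.57 to 154). RSPO2 was 23.7-fold lower within the deeper libraries, and the shallower ones held 0 of its UMIs in endothelial cells and 11 in mural cells and fibroblasts.

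Endothelial cells and astrocytes, which meet at the vessel wall, divided most of the 7 genes. LEF1 was 113-fold higher in endothelial cells (97.3 to 133), APCDD1 4.54-fold (4.21 to 4.88) and AXIN2 2.48-fold (2.01 to 3.03), and WIF1 was 14.3-fold higher in astrocytes (10.9 to 19.2), each in 7 of 7 libraries. The WIF1 log2 ratio was -3.84 pooled, -3.95 within the shallower and -3.21 within the deeper libraries, and the endothelial WIF1 level of 33.6 CPM is under that of microglia. After thinning to 1000 UMIs, AXIN2 did not pass the rule (log2 ratio 1.24). FZD3 was 3.05-fold higher in astrocytes (2.21 to 4.33) in 6 of 7 libraries and was not called. It was 4.32-fold higher there within the shallower libraries (2.81 to 7.01), where it passed the rule, and 1.51-fold within the deeper ones (0.926 to 2.62), at 52.1 against 34.6 CPM from 17 endothelial UMIs. The exception was library 7, with 49.6 CPM in endothelial cells (7 UMIs) and 44.1 CPM in astrocytes, and without that library FZD3 passed the rule. TCF7L1 was 1.59-fold higher in astrocytes (1.44 to 1.76). With 3 of 7 genes higher in endothelial cells and 1 of 7 higher in astrocytes, the shares over 10455 genes were 11.3% and 14.2%. Of 6 measured barrier genes besides LEF1 and APCDD1, 5 were higher in endothelial cells, SLC38A5 by 204-fold (140 to 311), and 1 in astrocytes, the thyroid hormone carrier SLCO1C1 at 253 against 13.6 CPM (18.7-fold, 12.2 to 30.2). As above, the choice of the barrier list favours endothelial cells. Of 5 measured target genes besides AXIN2, LEF1 and APCDD1, 2 were higher in endothelial cells and 2 in astrocytes. The Wnt7 co-receptor ADGRA2 was at 193 CPM in endothelial cells against 1.88 CPM in astrocytes (103-fold, 72.5 to 149), and the pathway antagonist NKD1 was 6.96-fold higher in endothelial cells (5.79 to 8.34). All 4 measured genes for R-spondins and receptor turnover were higher in astrocytes, LGR4 by 10.3-fold (7.13 to 15.6) and ZNRF3 by 4.04-fold (3.70 to 4.42), at 1343 CPM in astrocytes.

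Ependymal cells carried more of the receptor and less of WIF1 than astrocytes. FZD3 was 5.40-fold higher in ependymal cells (5.02 to 5.80), LEF1 2.48-fold (1.92 to 3.19) and AXIN2 2.12-fold (1.82 to 2.46), and WIF1 was 21.3-fold lower (17.3 to 26.6), each in 8 of 8 libraries. LEF1 did not pass after thinning to 1000 UMIs (log2 ratio 1.52), nor AXIN2 with doublets kept (0.91). The FZD3 log2 ratio differed little between libraries, from 2.15 through a median of 2.37 to 2.57, although its level in each class did. WIF1 gave -4.41 pooled, -4.68 within the shallower and -3.46 within the deeper libraries. TCF7L1 was 1.30-fold and APCDD1 1.15-fold higher, each in 6 of 8 libraries, and TCF7L2 was 1.05-fold lower, and none was called. The counts of 3 genes higher and 1 lower of 7 stand beside 12.5% and 9.52% of 10447 genes. Of 5 measured planar polarity genes besides FZD3, 3 were higher in ependymal cells and 0 lower (median log2 ratio 1.03, against -0.06 over all genes), among them CELSR1 at 81.3 against 7.32 CPM (11.1-fold, 9.08 to 13.6) and VANGL1 at 37.6 against 9.99 CPM (3.76-fold, 3.02 to 4.69). Of 8 measured genes for ligands and their secretion, 5 were higher in ependymal cells and 2 in astrocytes. The ligand WNT9A was 11.4-fold higher (9.59 to 13.6) and WNT8A was at 19.1 against 1.15 CPM (16.6-fold, 10.2 to 28.0). RSPO2 was 23.9-fold higher (19.6 to 29.3), whereas the ubiquitin ligase ZNRF3 was 4.49-fold lower (4.24 to 4.77) and the receptor ROR1 6.51-fold lower (5.44 to 7.86). Within the deeper libraries CELSR1 was 16.9-fold and RSPO2 10.1-fold higher.

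**Figure D4:**
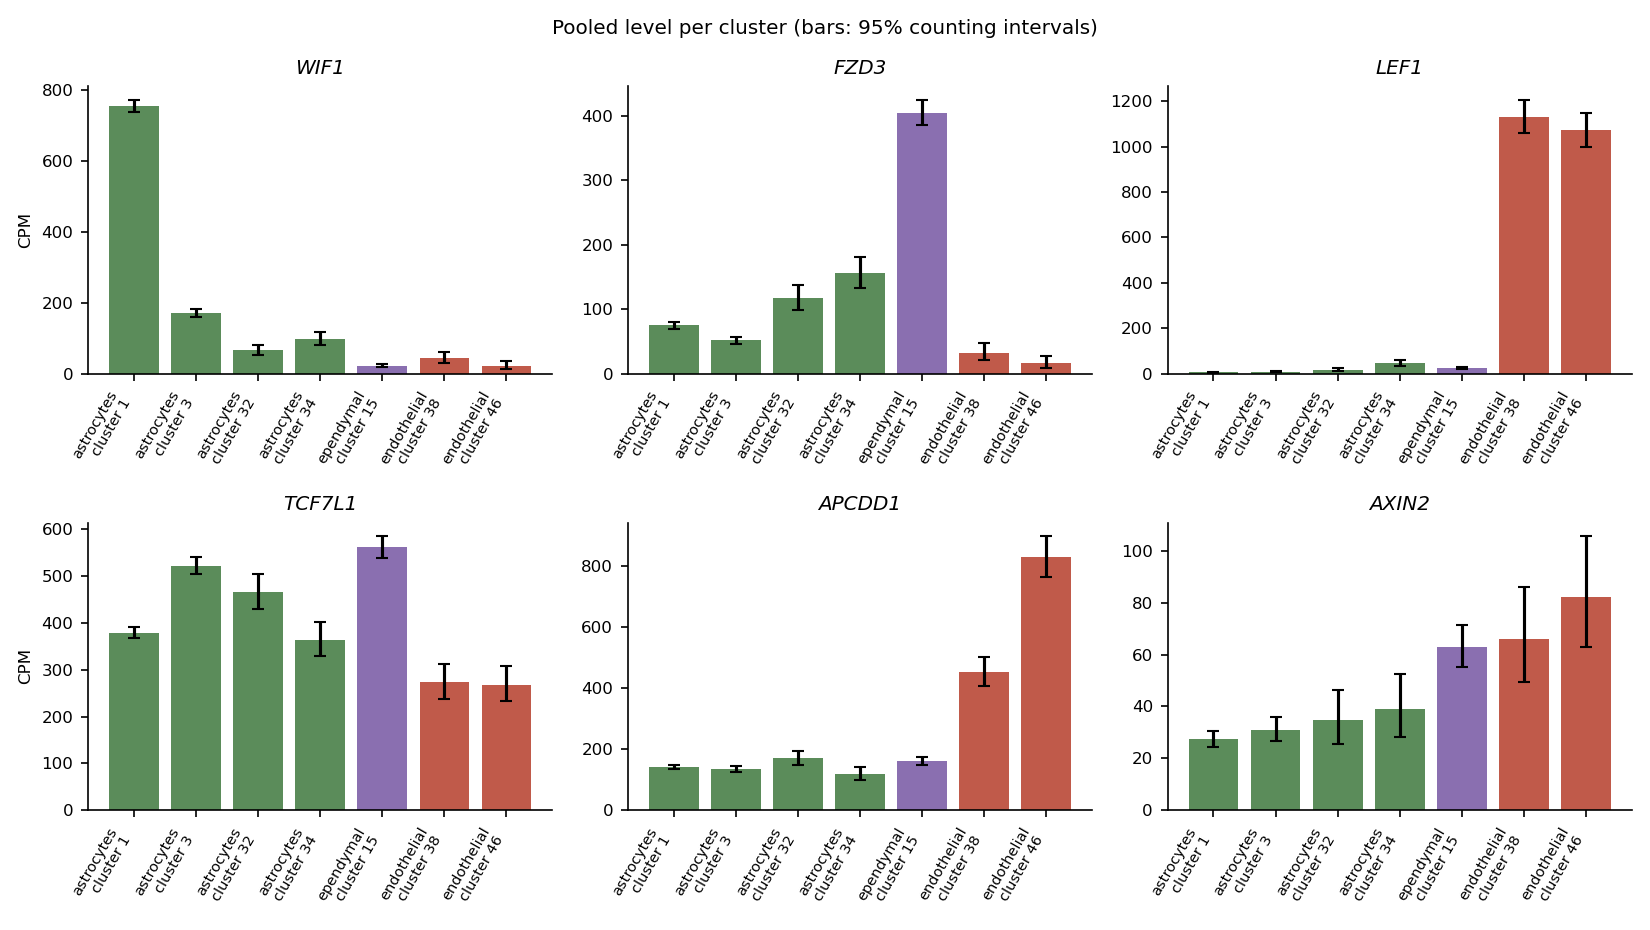
CPM of 6 genes in the 4 astrocyte clusters (green), the ependymal cluster (violet) and the 2 endothelial clusters (red), with 95% counting intervals. WIF1 falls from 755 CPM in astrocyte cluster 1 to 66.7 CPM in cluster 32, where FZD3 is higher (118 CPM), and APCDD1 differs between the endothelial clusters.

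Within astrocytes, the smaller clusters 32 and 34 had more FZD3 than the main ones, at 118 CPM (99.7 to 138) and 156 CPM (133 to 181), beside 75.1 CPM in cluster 1 and 51.7 CPM in cluster 3. TCF7L1 stayed between 364 and 521 CPM in the 4 clusters and APCDD1 between 120 and 171 CPM. Cluster 32 led with EGFR, the R-spondin receptor LGR6 and the hedgehog genes BOC and GLI2, and cluster 34 with NPSR1, HS3ST3A1 and TNC. Clusters were built from variable genes outside the pathway lists, so such differences between them are a description.

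Neurons held little of most of these genes. Against neurons (excitatory, inhibitory and cluster 6 together), astrocytes had 36.5-fold more TCF7L1 (34.9 to 38.1), 18.9-fold more WIF1 (18.2 to 19.5), 12.4-fold more TCF7L2 (11.2 to 13.7), 9.70-fold more APCDD1 (9.21 to 10.2) and 2.82-fold more AXIN2 (2.57 to 3.09), each in 8 of 8 libraries. FZD3 was an exception, at 75.0 CPM in astrocytes and 66.5 CPM in neurons (1.13-fold, 1.07 to 1.19), higher in astrocytes in 4 libraries and in neurons in the other 4. Within the shallower libraries it was 1.37-fold higher in astrocytes (1.29 to 1.46), and within the deeper ones 1.33-fold higher in neurons (1.19 to 1.5). LEF1 was under 10 CPM in both classes. For WIF1 the log2 ratio was 4.24 pooled, 4.61 within the shallower libraries and 2.74 within the deeper ones, for TCF7L2 it was 3.63, 3.04 and 4.38, and for APCDD1 it was 3.28, 2.76 and 3.86. The pooled neuronal levels of the 5 genes apart from AXIN2 and FZD3 were under those of microglia (in the deeper libraries WIF1 stood at 25.4 CPM in neurons and 21.6 CPM in microglia, from 5 UMIs), and the part of free RNA in these ratios was not tested. With 5 of 6 measured genes higher in astrocytes and 0 in neurons, the shares over 10204 genes were 17.2% and 14.5%. All 4 measured target genes besides AXIN2 and APCDD1 were higher in astrocytes (median log2 ratio 2.55, against 0.16 over all genes), ZNRF3 by 11.3-fold (11.1 to 11.5) and RNF43, its relative, by 9.01-fold (8.30 to 9.77). The ligand NDP was 12.3-fold higher (10.5 to 14.5) and the co-repressor TLE1 4.13-fold (4.00 to 4.26), and the polarity gene PRICKLE2 was 3.30-fold higher in neurons (3.17 to 3.45).

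Excitatory and inhibitory neurons differed in WIF1. It stood at 57.8 CPM in inhibitory neurons (libraries 52.0, 56.5 and 68.5) and at 16.5 CPM in excitatory neurons (libraries 12, 17 and 19), a 3.50-fold difference (3.31 to 3.69) in 8 of 8 libraries with no overlap. Within the shallower libraries the inhibitory level of 58.4 CPM (54.8 to 62.1) overlapped the microglial 60.6 CPM (53.8 to 68.1), and within the deeper ones 57.5 CPM (54.5 to 60.5) was above the microglial 21.6 CPM (7.03 to 50.5, 5 UMIs in 186 nuclei). Over all libraries the thinned share of nuclei with a UMI, 4.45% (3.98 to 4.96), is under the microglial 5.84%. It was uneven over inhibitory clusters, from 11.3 CPM in cluster 8 to 194 CPM in cluster 40 (174 to 215, 266 nuclei), a cluster present in all 8 libraries and singled out after its value was seen. APCDD1 was 1.88-fold (1.74 to 2.03) and TCF7L1 1.64-fold (1.49 to 1.81) higher in inhibitory neurons in 8 of 8 libraries, and FZD3 1.31-fold higher in excitatory neurons (1.25 to 1.37, 8 of 8 libraries), each under the 2-fold limit. The TCF7L1 difference rested on inhibitory cluster 10, with 32.5 CPM and 352 of the 575 inhibitory UMIs. The other inhibitory clusters had 1.10 to 9.42 CPM, beside 8.29 CPM in excitatory neurons. With 5% of the counts removed as free RNA, APCDD1 and TCF7L1 also passed the rule. In all, 1 of 5 measured genes was higher in inhibitory and 0 in excitatory neurons, where the shares over 9464 genes were 6.51% for inhibitory and 6.17% for excitatory. Among other pathway genes, WLS was 7.65-fold (7.34 to 7.97), RSPO2 6.08-fold (5.78 to 6.39) and the secreted inhibitor SFRP1 9.17-fold (7.96 to 10.6) higher in inhibitory neurons, and RSPO3 was 4.56-fold (4.08 to 5.12) and the inhibitor FRZB 4.50-fold (3.76 to 5.42) higher in excitatory neurons. Within the shallower and the deeper libraries the ratios were 16.5-fold and 3.34-fold for RSPO2, 5.01-fold and 17.7-fold for SFRP1 and 2.27-fold and 5.84-fold for RSPO3.

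Cluster 6 was compared with the granule-like neurons (3105 nuclei). The pair was chosen with the granule lineage in mind, and whether either belongs to that lineage was not tested. TCF7L1 was the clearest difference, with 153 CPM, 132 CPM, 114 CPM and 140 CPM in the 4 libraries of cluster 6 against 15.4 CPM, 15.5 CPM, 4.75 CPM and 7.15 CPM in granule-like neurons of those libraries. Pooled over all libraries it was 6.12-fold higher in cluster 6 (5.41 to 6.92), a log2 ratio of 2.61, and 3.45 within the shallower libraries, where 97.4% of cluster 6 lies. Granule-like neurons of the other 4 libraries had 44.0 to 55.5 CPM and form a separate cluster. FZD3 was 2.36-fold (2.13 to 2.62) and WIF1 2.76-fold (2.38 to 3.18) higher in cluster 6, in 4 of 4 libraries. With another scaling by trimmed means, which shifts the log2 ratios of all genes by -0.34 here, FZD3 fell under the 2-fold limit (log2 ratio 0.90) and APCDD1 was called higher in granule-like neurons. APCDD1 was 1.71-fold lower in cluster 6 (1.38 to 2.14). With 3 of 5 measured genes higher and 0 lower, the shares over 10039 genes were 16.9% higher and 8.17% lower. The inhibitor and guidance gene DRAXIN was 12.7-fold (9.61 to 17.1), SFRP1 9.96-fold (7.61 to 13.1), the receptor PTK7 8.65-fold (6.98 to 10.8) and LRP5 7.44-fold (5.64 to 9.85) higher in cluster 6, and ROR1 was 7.54-fold higher in granule-like neurons (6.49 to 8.81).

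**Figure D5:**
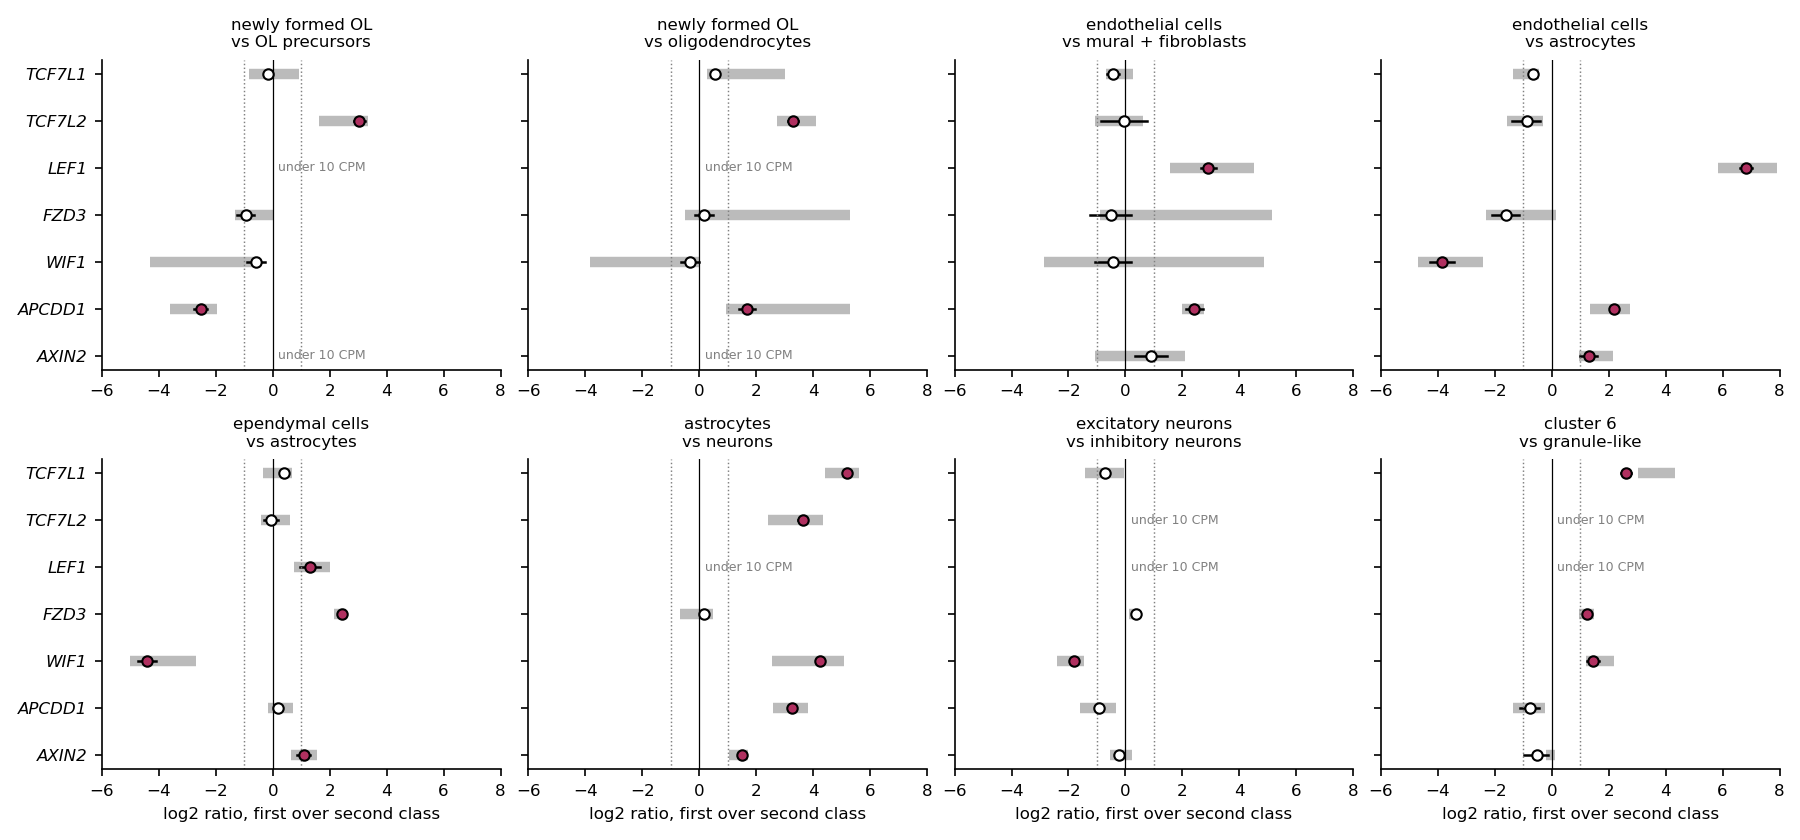
log2 ratio of the first over the second class for the 7 genes in the 8 comparisons, as points with 95% counting intervals (black lines) over the range of the libraries (grey bars, from CPM + 1); filled points passed the rule and dotted lines mark 2-fold. The pooled TCF7L1 ratio of cluster 6 lies left of its bar because granule-like nuclei of 4 further libraries enter the pooled value.

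The genes whose levels across the 14 classes were most like each of the 7 were found by Pearson's r of log2(CPM + 1) among 12941 genes that reached 10 CPM in some class. The classes share libraries and depth, so r is a description with no test. LEF1 was followed most closely by SULT1C4 (r = 0.971), FN1 (0.961) and TDRP (0.960), each highest in endothelial cells. FZD3 was followed by FANK1 (0.942), TXNL4B (0.938) and CASC1 (0.938), highest in ependymal cells, and WIF1 by MOXD1 (0.942), REPS1 (0.899) and the glutamate carrier SLC1A2 (0.883), highest in astrocytes. For TCF7L2 they were MAML2 (0.900), INPPL1 (0.899) and STX8 (0.872), highest in newly formed oligodendrocytes. APCDD1 was most like FZD6 (0.908) and NEDD9 (0.903). TCF7L1 was most like KANSL1L (0.918), RFTN2 (0.905) and PLCD1 (0.901). AXIN2 was most like KCTD15 (0.913), TNFRSF19 (0.911), itself on the target list, and GLUD1 (0.897). SLC1A2 and FN1 are among the markers that named classes, as is MAML2.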

How the data were processed

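Nuclei were profiled with 10x 3' v3 chemistry. The deposited values are raw UMI counts of 59749 barcodes, written by Cell Ranger 3.1.0 per the file headers; CASAVA 1.8, Cell Ranger and Seurat are named in the submitters' processing notes. Neither the genome build nor the counting of intronic reads is given in the sources used here. Kept were the 58220 barcodes that reached 500 UMIs and 300 genes, and 3576 likely doublets were removed by comparison with simulated pairs. Counts were scaled to 10000, logged, reduced from 2000 variable genes to 30 components and clustered (Leiden, resolution 1, leidenalg 0.10.2; numpy 2.4.6, scipy 1.17.1) into 48 clusters, 4 of them unnamed. The 7 genes and the other listed pathway genes, 120 together in the matrix, were barred from the variable genes. The 7 genes and the lists were chosen with earlier results of these data known, and the scoring rule that names clusters was set after seeing the data. Class sums were compared as CPM, with no test, because the 8 libraries cannot be tied to the 8 samples; the call rule was tested on simulated data. Alternatives were trimmed-mean scaling (edgeR 4.0.16), equal library weights, removal of 5% free RNA, doublets kept, at least 1000 genes per nucleus, other resolutions, at least 50 nuclei per library, thinning to 1000 UMIs, leaving out each library and, added after seeing the data, each set of 4 libraries of like depth. Besides the 7 genes, the text names the 3 genes most like each (1 of them is not reported here), and draws other names from the 2 called genes with the largest fold of each list, in each direction of a comparison. No protein or promoter sequence was used here.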

Additional observations from a re-analysis of the deposited data

Results flagged for a closer look

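A library lay far from the others in 2 ratios, among 23 called ratios that were checked this way, where chance alone sets about 1 in 20 apart. For TCF7L2 in newly formed oligodendrocytes against precursors, library 5 had a log2 ratio (of CPM + 1) of 1.62, below the next library at 2.81. Library 5 holds 21 newly formed oligodendrocyte nuclei with 10 TCF7L2 UMIs, and TCF7L2 was still higher there than in precursors. For APCDD1 in newly formed against mature oligodendrocytes, library 8 had 5.29, above the next library at 1.75. That library had 3 APCDD1 UMIs in 23 newly formed nuclei and 0 in 65 mature nuclei, so the value depends on the 1 CPM added to each side.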

How the results depend on the processing

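The 23 ratios of the 7 genes that passed the rule kept their direction in each of the 19 alternatives that gave a value, and 18 of them also stayed past the rule throughout. In 5 cases a ratio no longer passed: APCDD1 in newly formed against mature oligodendrocytes (log2 ratio 1.84), AXIN2 in endothelial cells against astrocytes (1.24) and LEF1 in ependymal cells against astrocytes (1.52) after thinning to 1000 UMIs, AXIN2 in ependymal cells against astrocytes with doublets kept (0.91), and FZD3 in cluster 6 against granule-like neurons with trimmed-mean scaling (0.90). The cause was not tested. Some ratios passed only in alternatives: TCF7L1 in newly formed against mature oligodendrocytes with equal library weights, and in endothelial cells against astrocytes FZD3 with at least 50 nuclei per library and TCF7L2 with doublets kept. LEF1 in astrocytes against neurons passed in 5 alternatives, among them without library 3, 4 or 5, and in cluster 6 without library 4. The number of genes called changed by more than 1.5 times in these cases. For newly formed against mature oligodendrocytes it was 1 after thinning, in place of 2. For newly formed oligodendrocytes against precursors it was 4 in the deeper libraries alone, in place of 2, with WIF1 and AXIN2 added. For excitatory against inhibitory neurons it was 3 with 5% free RNA removed (TCF7L1 and APCDD1 added) and 2 in the deeper libraries alone, in place of 1, and leaving out each library in turn gave 1 to 2, with APCDD1 added without library 2. Cluster 6 against granule-like neurons could not be given for the deeper libraries, none of which has 20 nuclei of cluster 6. Trimmed-mean scaling shifted all log2 ratios by 0.27 for newly formed oligodendrocytes against precursors, 0.12 against oligodendrocytes, 0.25 for endothelial against mural cells and fibroblasts, -0.15 for astrocytes against neurons, 0.10 for excitatory against inhibitory neurons and -0.34 for cluster 6, and by under 0.1 elsewhere. It changed the split of all calls from 387 higher and 904 lower to 468 and 655 for newly formed oligodendrocytes against precursors, and from 1700 and 820 to 1068 and 1334 for cluster 6. The count of all called genes moved by over 1.5 times where fewer libraries had to agree: from 1291 to 2008 and from 1278 to 2121 for newly formed oligodendrocytes against precursors and against oligodendrocytes in the deeper libraries, and from 1245 to 2154 (at least 50 nuclei per library, 845 higher and 1309 lower in place of 616 and 629), 2227 (shallower) and 2288 (deeper) for endothelial against mural cells and fibroblasts. No paired analysis was possible because no library can be tied to a sample or a replicate number.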

Other observations

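Other pathway genes were highest in a range of classes. Of the 79 listed genes besides the 7 that reached 10 CPM in some class, 19 were highest in fibroblasts, 12 in endothelial cells, 10 in ependymal cells and 9 in astrocytes, and 1 each in excitatory and in inhibitory neurons. Fibroblasts are a class of 301 nuclei, so its low levels rest on few UMIs. The matching shares over all genes were not computed, so the counts are not read as a trait of the pathway. Listed genes highest in endothelial cells included FZD6 (212 CPM), FZD4 (100 CPM) and CTNNB1 (427 CPM), beside LEF1 and APCDD1.

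WIF1 in astrocytes fell into separate ranges over the libraries, with 494 CPM, 494 CPM, 760 CPM and 832 CPM in libraries 1 to 4 and 162 CPM, 176 CPM, 160 CPM and 180 CPM in libraries 5 to 8. FZD3 in ependymal cells had 481 CPM, 439 CPM, 422 CPM and 450 CPM in libraries 1 to 4 and 260 CPM, 277 CPM, 267 CPM and 291 CPM in libraries 5 to 8. TCF7L1 in astrocytes ran the other way, with 378 CPM, 405 CPM, 381 CPM and 377 CPM in libraries 1 to 4 and 484 CPM, 531 CPM, 511 CPM and 566 CPM in libraries 5 to 8. Libraries 5 to 8 are the deeper ones, and the labels put no library in a group.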
